A study of Mus musculus with 12 samples.

Results

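The metallothioneins Mt1 and Mt2, the zinc-sensing transcription factor gene Mtf1 and the zinc exporter gene Slc30a1 were described in transferrin-receptor-positive bone marrow cells of 4 mouse genotypes. These 4 of 19935 measured genes were taken as the probe sets that carry a listed symbol and no other, and each of the 4 had 1 probe set. The genes were chosen by earlier results of these arrays, namely the differences of Mt1 and Mt2 between the genotypes. Their values are therefore given as a description with no test. Mt2 was 3.39-fold higher in mice with the CD70 transgene than in WT and Mt1 was 1.47-fold higher, whereas Mtf1 differed by 0.20 and Slc30a1 by 0.01 on the log2 scale. In transgenic mice lacking interferon-gamma, Mt2 lay 0.38 above mice that lacked interferon-gamma alone, and the Mt1 values of these groups overlapped.

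Metallothioneins are small cysteine-rich proteins that bind zinc and copper and hold free metal ions low inside the cell. The zinc-finger protein MTF-1, encoded by Mtf1, binds metal response elements in DNA when zinc is plentiful and switches on the metallothionein genes and Slc30a1, whose product ZnT1 carries zinc out through the plasma membrane. Metallothionein transcripts are also known to respond to glucocorticoids, to interleukin-6 through STAT3 and to oxidative stress, and developing red cells use zinc in enzymes such as carbonic anhydrase and aminolevulinate dehydratase.

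Each array held RNA from the bone marrow of 1 male mouse aged 10 to 12 weeks on a C57BL/6 background (strain C57BL/6J in the labels), and each of the 4 genotypes had 3 mice, numbered as separate animals. Marrow from crushed hind-leg bones was passed over magnetic beads to enrich cells carrying CD71, the transferrin receptor, which is abundant on red cell precursors. RNA was measured on a 1-colour whole-transcript Affymetrix array. The genotypes were wild type (WT), CD70TG, Ifng-/- and CD70TG*Ifng-/-. CD70TG mice, from clone F13, had a transgene for CD70, the ligand of CD27, a receptor found on T cells. Ifng-/- mice were without the interferon-gamma gene, and CD70TG*Ifng-/- mice had both changes. Which promoter and cell type drive the transgene is not stated in the sources used.

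The deposited values are log2 values relative to each probe set's median over the 12 arrays, so a value of 0 is the middle of the series and levels cannot be compared between genes. The rounding of the numbers still showed whether a gene lay above a log2 level of 8 in every array, as 2729 genes did. Mt1 and Slc30a1 were in that higher class, and Mt2 and Mtf1 were not. A gene outside it can still lie above 8 in some arrays, so the class does not place Mt2 in the CD70TG mice.

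The promoters are printed because MTF-1 acts on the metallothionein genes through short elements close to the start site. The letters are RefSeq's (GRCm38.p6), 5′ to 3′, and cover the 250 bases before the start site. Capitals mark matches to the metal response element core, searched as TGCACNC and as TGCGCNC on both strands (a match on the other strand appears as its reverse complement).
Mt1 promoter, chr8:94178839-94179088, plus strand: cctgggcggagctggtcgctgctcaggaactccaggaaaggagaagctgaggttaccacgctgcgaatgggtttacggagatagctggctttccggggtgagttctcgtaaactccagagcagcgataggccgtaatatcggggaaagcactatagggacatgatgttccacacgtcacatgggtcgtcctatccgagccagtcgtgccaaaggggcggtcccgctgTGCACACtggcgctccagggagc
Mt2 promoter, chr8:94172368-94172617, plus strand: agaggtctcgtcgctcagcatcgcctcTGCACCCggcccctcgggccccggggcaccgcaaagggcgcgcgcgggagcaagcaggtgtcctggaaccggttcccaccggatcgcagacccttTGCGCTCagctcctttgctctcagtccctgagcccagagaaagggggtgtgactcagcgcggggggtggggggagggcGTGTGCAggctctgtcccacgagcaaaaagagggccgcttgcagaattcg
Mtf1 promoter, chr4:124802299-124802548, plus strand: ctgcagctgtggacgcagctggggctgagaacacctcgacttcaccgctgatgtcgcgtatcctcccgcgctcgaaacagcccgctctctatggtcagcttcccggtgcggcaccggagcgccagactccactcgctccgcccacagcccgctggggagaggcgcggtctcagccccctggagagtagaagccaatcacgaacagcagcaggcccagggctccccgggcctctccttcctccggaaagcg
Slc30a1 promoter, chr1:191906531-191906780, plus strand: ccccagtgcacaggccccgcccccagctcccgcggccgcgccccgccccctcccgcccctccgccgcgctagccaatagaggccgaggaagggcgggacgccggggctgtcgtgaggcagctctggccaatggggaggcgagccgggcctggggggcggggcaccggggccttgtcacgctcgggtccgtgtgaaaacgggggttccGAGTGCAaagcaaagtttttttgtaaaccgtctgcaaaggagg

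Motifs were counted in the 300 bases from 250 before to 50 after the start site, with the start site numbered 0 and each match placed by its first base. Each start site is that of the RefSeq entry and was not checked against another source. Counts and positions hold for that start only. The Mt2 window held 4 core matches, TGCACCC at -223, TGCGCTC at -128, and on the opposite strand TGCACAC at -50 and TGCGCAC at 4. The Mt1 window held 3, TGCACAC at -23, TGCACTC at 2 and TGCGCTC at 20. The Slc30a1 window held 2, both on the opposite strand, TGCACTC at -43 and TGCGCTC at 30, and the Mtf1 window held 0. Of 32851 promoters of the same length in the RefSeq table, 25.7% held at least 1 match, 7.11% at least 2, 1.97% at least 3 and 0.517% at least 4. By form, TGCACNC was in 12.6% of them and TGCGCNC in 15.4%.

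The 4 windows differed in other elements as well. The antioxidant response element core, TGACNNNGC, which the stress factor NRF2 binds, matched once in Mt2, as TGACTCAGC at -79, and once in Slc30a1, on the opposite strand at -82, and it was in 12.4% of all promoters. The Sp1 box GGGCGG matched 3 times in Mt1, 5 times in Slc30a1, 1 time in Mtf1 and 0 times in Mt2, against 35.7% of all promoters with a match. The gamma-activated site that STAT factors bind (TTCNNNGAA, in 8.3% of promoters), the interferon-stimulated response element (3.44%) and the E-box (CACGTG, 7.15%) had no match in any of the 4 windows on either strand. A match here is a run of letters and not evidence of binding. Elements outside these windows were not searched, so a window without a match does not show that the gene lacks the element.

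Markers of the sorted cells and of other marrow cells were checked. All 10 measured erythroid markers, among them Gata1, Tfrc and Slc4a1, were in the higher level class, and none of 14 macrophage markers was. The class needs a gene to be above the bound in every array, so a gene that is low in 1 genotype falls out of it. For the macrophage markers it therefore does not give the level in WT or Ifng-/-. The mean of the macrophage list differed between the genotypes, with array values from 0.75 to 1.43 in WT, -0.73 or lower in CD70TG, 1.17 to 1.54 in Ifng-/- and -1.42 to -1.33 in CD70TG*Ifng-/-. The mean of the erythroid list ran from -0.20 to 0.08 over all 12 arrays. Within Ifng-/-, array 1 was the highest and array 2 the lowest of that group for neutrophil genes, from -0.62 to 1.69, so the Ifng-/- group was the least even for those genes. Ifng itself ranged from -0.162 to 0.200 with all groups overlapping, which checks no label, while Cd70 was -0.011 to 0.053 in CD70TG and 0.050 to 0.339 in CD70TG*Ifng-/-, against -0.379 to -0.115 in WT and -0.486 to 0.040 in Ifng-/-.

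Mt2 encodes the metallothionein isoform that is made, with Mt1, in most tissues. Its log2 values were 1.239, 1.503 and 1.783 in the 3 CD70TG arrays and -0.162, -0.164 and -0.433 in the 3 WT arrays. The lowest CD70TG mouse lay far above the highest WT mouse. Values in CD70TG*Ifng-/- were 0.421, 0.040 and 0.034, and in Ifng-/- they were -0.409, -0.034 and -0.192. The CD70TG*Ifng-/- mice were all above the Ifng-/- mice, but by only 0.067 at the closest pair, and mouse 1 stood above the other two.

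The means of Mt2 were 1.508 ± 0.272 in CD70TG, 0.165 ± 0.221 in CD70TG*Ifng-/-, -0.211 ± 0.188 in Ifng-/- and -0.253 ± 0.156 in WT (SD, n = 3 each). In that order CD70TG was separated from the next group by 0.818 between their nearest mice, CD70TG*Ifng-/- from Ifng-/- by 0.067, and Ifng-/- and WT overlapped. CD70TG exceeded WT by 1.76 ± 0.14 (log2 difference ± SE), and 8 other genes of the array had a larger rise. CD70TG*Ifng-/- lay 1.34 below CD70TG (-1.34 ± 0.14, a 2.54-fold difference), with 32 genes further down. The rise with the transgene was 1.3-fold without interferon-gamma, 0.38 ± 0.14, and it was 0.25 when CD70TG*Ifng-/- mouse 1 was left out and 0.58 under quantile normalization. The difference between both transgene effects was 1.39 ± 0.20.

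Mt1 encodes the partner isoform, whose gene lies beside Mt2 on chromosome 8. Its log2 values were 0.412, 0.399 and 0.623 in CD70TG and -0.221, 0.007 and -0.007 in WT. Every CD70TG mouse was above every mouse of the other groups. Ifng-/- mice had -0.122, 0.060 and -0.053, and CD70TG*Ifng-/- mice had 0.146, -0.391 and -0.206. These groups overlapped with each other and with WT, and the CD70TG*Ifng-/- mice were the most scattered, with a range that enclosed all WT and Ifng-/- mice.

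Group means of Mt1 were 0.478 ± 0.126 in CD70TG, -0.038 ± 0.092 in Ifng-/-, -0.074 ± 0.128 in WT and -0.150 ± 0.273 in CD70TG*Ifng-/- (SD, n = 3 each). CD70TG stood 0.339 above the next group at the nearest mice, and no other neighbours in that order were apart. The difference from WT was 0.55 ± 0.12 in CD70TG, and 248 genes rose more. It became 0.38 when each array was centred within level classes, because the median gene of the higher class was itself 0.19 higher in CD70TG than in WT and that of the other genes -0.04. CD70TG*Ifng-/- lay 0.63 below CD70TG (-0.63 ± 0.12), a 1.55-fold difference, and against Ifng-/- it differed by -0.11 ± 0.12. The latter has no settled direction, since it was -0.26 without CD70TG*Ifng-/- mouse 1 and 0.01 without mouse 2.

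**Figure D1:**
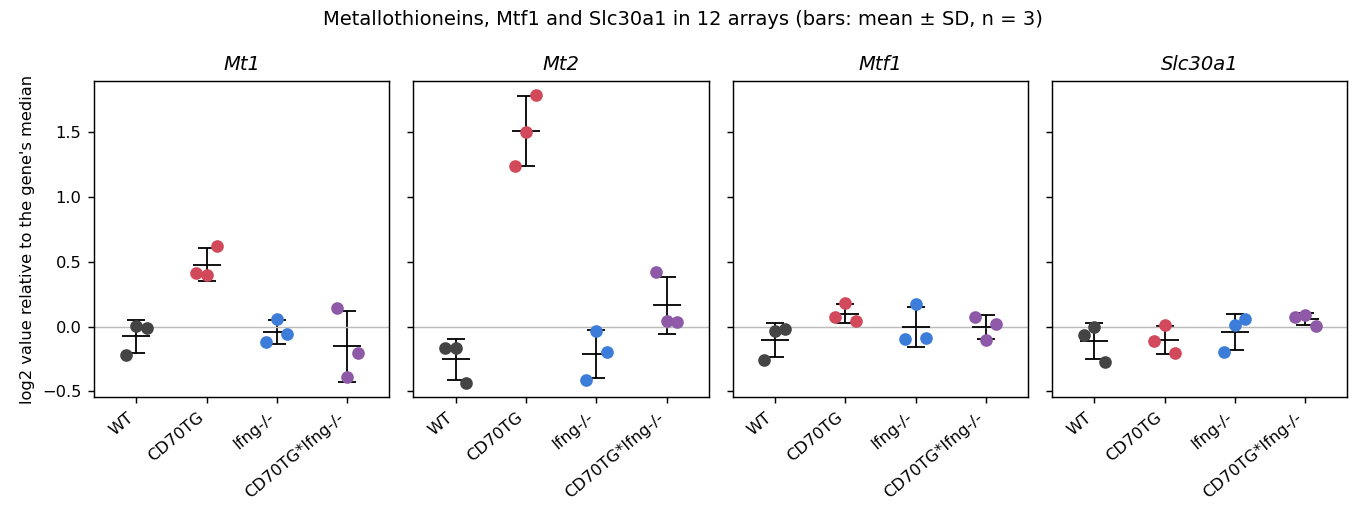
Log2 value of each gene relative to its median over 12 arrays (y axis) in the 4 genotypes (x axis), with 1 point per mouse and black bars for the mean ± SD of 3 mice. Mt2 in CD70TG sits between 1.239 and 1.783 and Mt1 in CD70TG between 0.399 and 0.623, above the mice of the other groups, while Mtf1 and Slc30a1 stay between -0.269 and 0.185.

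Mtf1 encodes the zinc sensor itself. The 3 CD70TG mice had 0.075, 0.185 and 0.042, and the WT mice -0.256, -0.037 and -0.017. Without interferon-gamma the values were -0.093, 0.171 and -0.088 (no transgene) and 0.074, -0.103 and 0.017 (with it). The CD70TG mice were all above the WT mice, with no overlap but little to spare, and every other pair of groups overlapped. The CD70TG mean of 0.101 ± 0.075 (SD, n = 3) was 0.20 ± 0.09 above the WT mean of -0.103 ± 0.133, which is 1.15-fold, and 3571 genes rose by more. Leaving out WT mouse 1, the lowest, brought it to 0.13. In Ifng-/- and CD70TG*Ifng-/- the means were -0.003 ± 0.151 and -0.004 ± 0.090.

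Slc30a1, the exporter gene that MTF-1 is known to switch on together with the metallothioneins, varied least with genotype. WT mice had -0.062, -0.004 and -0.269, and CD70TG mice -0.111, 0.013 and -0.202. The Ifng-/- mice had -0.195, 0.014 and 0.062, and the CD70TG*Ifng-/- mice 0.075, 0.091 and 0.004. All groups that the design compares overlapped. The means were -0.112 ± 0.139, -0.100 ± 0.108, -0.040 ± 0.137 and 0.057 ± 0.046 in the same order (SD, n = 3 each). The CD70TG difference from WT was 0.01 ± 0.09 and turned to -0.16 with centring within level classes. The largest difference among the 4 comparisons of 2 groups was 0.16 ± 0.09, CD70TG*Ifng-/- above CD70TG.

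Counted over the members, 3 of the 4 (Mt1, Mt2 and Mtf1) were higher in CD70TG than in WT without overlap, which 17.6% of all genes were. The count was 1 of 4, Mt2, for CD70TG*Ifng-/- above Ifng-/- (9.32% of all genes) and 2 of 4, Mt1 and Mt2, for CD70TG*Ifng-/- below CD70TG (8.27%). No member was apart between Ifng-/- and WT, where the differences were 0.04 for both Mt1 and Mt2, 0.10 for Mtf1 and 0.07 for Slc30a1, and 18.6% of all genes were apart in either direction. These counts come from the values that chose the genes, and nothing is read from them. The comparisons with CD70TG share those 3 mice, so the rise against WT and the fall in CD70TG*Ifng-/- are not separate observations.

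**Figure D2:**
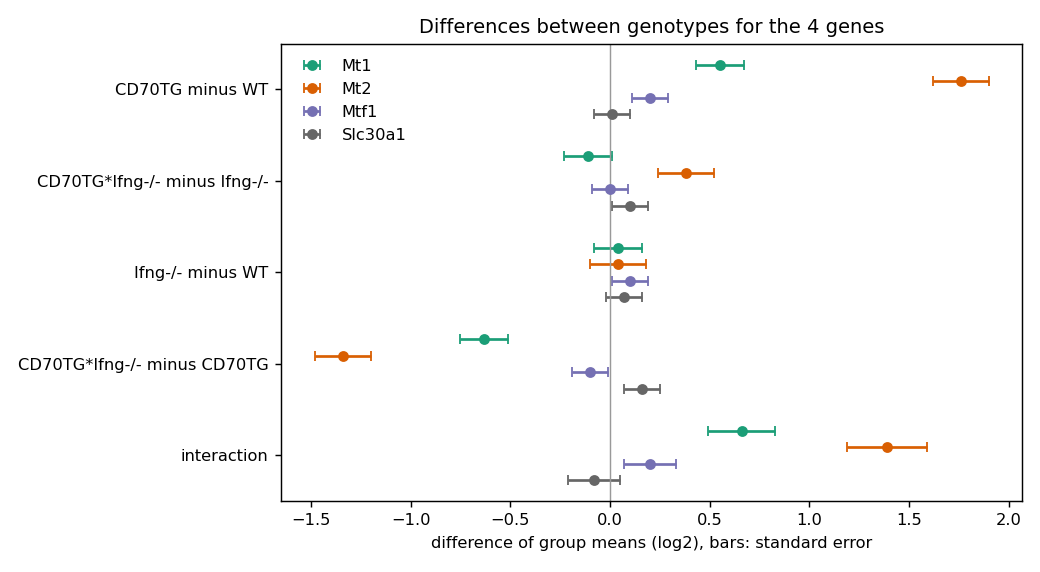
Difference of group means in log2 units (x axis) for 5 contrasts (y axis), with bars for the standard error from the fit to all 12 arrays; the interaction is the transgene effect with Ifng minus that without it. Mt2 runs from 1.76 in CD70TG minus WT to -1.34 in CD70TG*Ifng-/- minus CD70TG, Mt1 from 0.55 to -0.63, and Slc30a1 stays between -0.08 and 0.16.

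Mt1 and Mt2 did not move in fixed proportion. Over all 12 arrays Pearson's r was 0.86 and Spearman's rho 0.57, values to which the 3 CD70TG mice standing apart contribute. Over the other 9 arrays r was 0.16 and rho 0.00. Mt1 was closer to Mtf1 over those 9 arrays, with r of 0.63 and rho of 0.78, and Mt2 was closer to Slc30a1, with 0.78 and 0.78, although over all 12 arrays Mt2 and Slc30a1 had an r of -0.07. For deviations from the group means over all 12 arrays the order was another. There r was 0.64 for Mt1 and Mt2, 0.58 for Mt1 and Mtf1 and 0.34 for Mt2 and Slc30a1. These are descriptions over arrays that share one normalisation and, within groups, a genotype.

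The other metallothionein genes, Mt3 and Mt4, are known from brain and from stratified epithelia. They lie in one row with Mt2 and Mt1 on chromosome 8, and each promoter window held 1 metal response element core, TGCACAC, at 27 in Mt3 and on the opposite strand at -91 in Mt4. Neither passed limma's test (adjusted p under 0.05, with Benjamini-Hochberg adjustment over 19935 genes) in any of the 5 contrasts, and 1 of 10 unadjusted p-values was under 0.05. Mt3 differed from WT by -0.25 ± 0.11 in CD70TG (adjusted p = 0.168) and Mt4 by -0.14 ± 0.11 (adjusted p = 0.455). Both were in the lower level class, where a signal near background and a low transcript level look alike.

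The zinc transporter genes other than Slc30a1 were called about as often as genes in general. The ZnT proteins of the Slc30a family carry zinc out of the cytosol and the ZIP proteins of the Slc39a family carry it in. Of 9 exporter genes 1 rose in CD70TG against WT, and of 14 importer genes 2 rose and 0 fell. Over all genes that comparison called 10.9%, with 8.23% higher and 2.7% lower. The median difference was -0.03 for the exporters and -0.01 for the importers, against -0.02 over all genes.

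Slc30a5, whose product loads zinc into the early secretory pathway, was the exporter that rose. Its values were 0.212, 0.222 and 0.186 in CD70TG and -0.396, -0.086 and -0.248 in WT, so the CD70TG mice were close together and all above WT. The difference was 0.45 ± 0.10 (limma, adjusted p = 0.00948), and it was 0.37 with an adjusted p of 0.0539 without WT mouse 1. Its partner in the same compartment, Slc30a6, lay 0.35 ± 0.11 higher with an adjusted p of 0.0534. The vesicular exporter Slc30a2 lay 0.22 lower (-0.22 ± 0.07, adjusted p = 0.054) and Slc30a4 0.26 lower (-0.26 ± 0.11, adjusted p = 0.146).

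Among the importers, Slc39a7, which releases zinc from the endoplasmic reticulum, rose in CD70TG by 0.35 ± 0.09 (limma, adjusted p = 0.03) and Slc39a9, a Golgi transporter, by 0.33 ± 0.10 (adjusted p = 0.0432). Both calls were weak. Slc39a7 was at 0.31 to 0.39 and no longer past the threshold when WT mouse 1 or 3 or any 1 of the CD70TG mice was left out. For Slc39a9 this held for each WT mouse, CD70TG mice 1 and 2, Ifng-/- mouse 3 and CD70TG*Ifng-/- mouse 3, with differences of 0.26 to 0.38. Neither passed under quantile normalization.

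The transporter that fell was Slc39a10, a plasma membrane importer that MTF-1 is known to repress when zinc is high. Its values were -0.098, -0.476 and -0.398 in CD70TG*Ifng-/-, 0.123, 0.151 and 0.168 in Ifng-/-, -0.028, -0.051 and 0.047 in WT and -0.019, 0.019 and 0.267 in CD70TG. The CD70TG*Ifng-/- mice were below all others. Against Ifng-/- the difference was -0.47 ± 0.10 (limma, adjusted p = 0.0179, in a comparison that called 2.5% of genes, with 2.35% lower), and against CD70TG it was -0.41 ± 0.10 (adjusted p = 0.0608). The latter came past the threshold with centring within level classes (-0.44, adjusted p = 0.0382), with array weights (-0.40, adjusted p = 0.000762) and without CD70TG*Ifng-/- mouse 1 (-0.53, adjusted p = 0.01). The first was lost, at -0.46 to -0.40, without Ifng-/- mouse 3 or CD70TG*Ifng-/- mouse 2 or 3. In CD70TG against WT Slc39a10 differed by 0.10 ± 0.10 (adjusted p = 0.56).

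Slc30a10, a zinc and manganese exporter, was the 1 exporter that differed between CD70TG*Ifng-/- and CD70TG, a comparison that called 1.41% of genes, with 0.426% higher and 0.988% lower. Its values were 0.137, 0.165 and 0.159 against -0.153, -0.236 and -0.484, with all mice apart, and the difference was 0.44 ± 0.10 (limma, adjusted p = 0.0349). Centring within level classes gave 0.42 with an adjusted p of 0.0591. The call was also lost, at 0.35 to 0.47, when WT mouse 3, CD70TG mouse 2 or 3, or any 1 of the CD70TG*Ifng-/- mice was left out. Between Ifng-/- and WT no exporter or importer passed limma's threshold, where 0.00502% of genes were called and 2 exporters and 4 importers had an unadjusted p under 0.05.

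**Figure D3:**
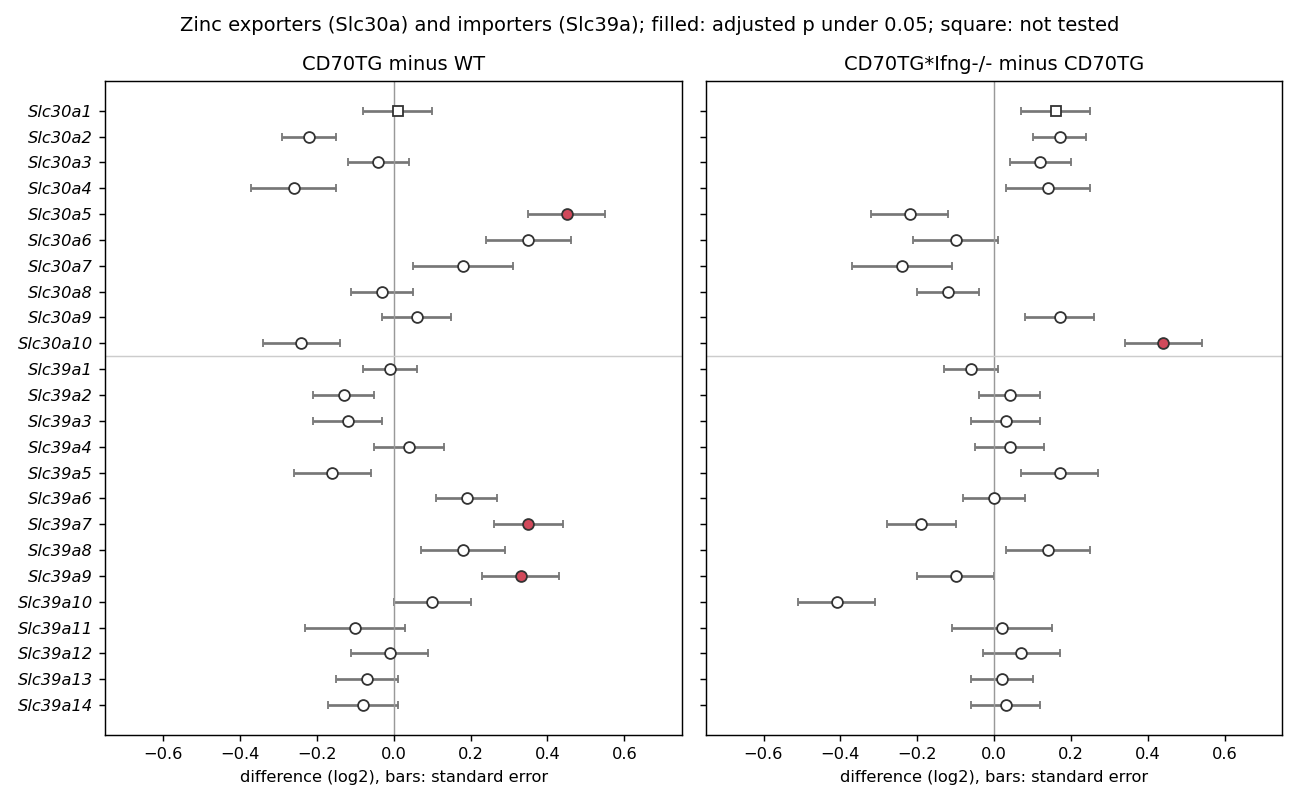
Log2 difference (x axis, bars: standard error) of each zinc exporter (Slc30a1 to Slc30a10) and importer (Slc39a1 to Slc39a14) in CD70TG minus WT (left) and in CD70TG*Ifng-/- minus CD70TG (right); filled circles had a limma adjusted p under 0.05, and the square, Slc30a1, was not tested. On the left Slc30a5 at 0.45, Slc39a7 at 0.35 and Slc39a9 at 0.33 are filled, and on the right only Slc30a10 at 0.44.

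Of 7 other genes described as MTF-1 targets, 1 rose in CD70TG, against 8.23% of all genes, which leaves nothing to read from the count. It was Selenow, a small selenoprotein of the redox defence. Its values were 0.264, 0.418 and 0.360 in CD70TG, -0.010, 0.040 and -0.126 in WT, and -0.104, 0.010 and 0.206 in Ifng-/-. The CD70TG*Ifng-/- mice had -0.076, -0.438 and -0.376. CD70TG mice were above all others, as they were for Mt1 and Mt2. The rise over WT was 0.38 ± 0.10 (limma, adjusted p = 0.031) and the fall from CD70TG to CD70TG*Ifng-/- was 0.64 (-0.64 ± 0.10, adjusted p = 0.00378).

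The interaction of transgene and Ifng genotype, which called 1.89% of all genes, was 0.71 ± 0.15 for Selenow (adjusted p = 0.0276). The fall of Selenow kept its call under every alternative that was run. The rise lost it, at 0.33 to 0.42, without WT mouse 1 or 3 or any 1 CD70TG mouse, and with centring within level classes it was 0.21 with an adjusted p of 0.246. Its promoter window held 2 metal response element cores. Of the rest, Csrp1, a cytoskeletal LIM protein gene with 3 cores in 1 promoter entry and 0 in the other, lay 0.25 ± 0.08 higher in CD70TG (adjusted p = 0.0606). Gclc, for glutathione synthesis, lay 0.16 ± 0.10 higher (adjusted p = 0.37), and Ndrg1 0.17 lower (-0.17 ± 0.12, adjusted p = 0.423). Of 25 other zinc-related genes with a promoter in the table, 14 held at least 1 core, 5 at least 2 and 3 at least 3. A gene with several promoter entries was counted by the entry with most cores. The shares of all promoters, 25.7%, 7.11% and 1.97%, are per entry, so the counts cannot be set against them directly.

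Zinc-dependent enzymes of red cells form a list too short to be read against the 10.9% of all genes called in CD70TG against WT or the smaller shares of the other contrasts. Car1 and Car2, carbonic anhydrases, Alad, for haem synthesis, and Sod1, the copper and zinc superoxide dismutase, were 4 of 4 in the higher level class, and 0 passed limma's threshold in any contrast, with 1 of 4 at an unadjusted p under 0.05 in CD70TG against WT and at most 2 of 4 in the other contrasts. In that comparison the smallest p was that of Car1, 0.24 ± 0.08 higher (adjusted p = 0.0803), which passed when only the higher level class was tested (adjusted p = 0.0437) and with array weights (0.27, adjusted p = 0.0123). Array weights also put Car1 past it in CD70TG*Ifng-/- against CD70TG, at -0.18 (adjusted p = 0.0422), where the fit without them gave -0.22 (adjusted p = 0.312).

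Copper handling was described alongside, because metallothioneins bind copper as well. Of 10 genes, 2 rose in CD70TG against WT, where 8.23% of all genes rose: Slc31a1, the copper uptake channel, by 0.56 ± 0.15 (limma, adjusted p = 0.0267) and Atp7b, a copper-exporting ATPase, by 0.41 ± 0.12 (adjusted p = 0.0459). The related Atp7a fell in CD70TG*Ifng-/- against Ifng-/-, where 2.35% of all genes fell, by 0.46 (-0.46 ± 0.11, adjusted p = 0.0419). Each of these calls turned on single mice. Slc31a1 was at 0.35 to 0.60 and not past the threshold without WT 1 or 3 or CD70TG 1 or 2. Atp7b was at 0.37 to 0.46 without any 1 of the WT and CD70TG mice, Ifng-/- 3 or CD70TG*Ifng-/- 3, and Atp7a at -0.50 to -0.37 without WT 3, CD70TG 1 or 2, Ifng-/- 1 or any 1 CD70TG*Ifng-/- mouse. Quantile normalization gave 0.39 for Atp7b (adjusted p = 0.115) and centring within level classes gave 0.43 (adjusted p = 0.0513). In CD70TG*Ifng-/- against CD70TG 0 of 10 passed limma's threshold, with 3 at an unadjusted p under 0.05. The smallest was that of the copper chaperone gene Atox1 at -0.28 ± 0.08 (adjusted p = 0.137). That comparison called 1.41% of all genes, so a list of this size with no call is near the background.

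Oxidative stress genes under NRF2 moved both ways. Of 13, 3 rose and 3 fell in CD70TG against WT, where 8.23% of all genes rose and 2.7% fell. The thioredoxin genes rose, Txnrd1 by 0.34 ± 0.07 (limma, adjusted p = 0.00909) and Txn1 by 0.32 ± 0.07 (adjusted p = 0.0131), and with them Keap1, the NRF2 inhibitor, by 0.29 ± 0.09 (adjusted p = 0.0458). Hmox1, for haem breakdown, fell by 3.16 (-3.16 ± 0.17, adjusted p = 5.72e-07), Sqstm1 by 0.32 (-0.32 ± 0.07, adjusted p = 0.0136) and Gclm, for glutathione synthesis, by 0.28 (-0.28 ± 0.09, adjusted p = 0.0484). With each mouse left out in turn 1 to 4 of the list rose and 1 to 4 fell.

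Hmox1 also fell with the transgene without interferon-gamma, by 3.68 (-3.68 ± 0.17, adjusted p = 2.31e-08), where Mt2 was 0.38 higher. Its values were -1.487 to -1.389 in CD70TG and -1.826 to -1.498 in CD70TG*Ifng-/-, against 1.389 to 2.281 in WT and 1.856 to 2.111 in Ifng-/-, the split that the macrophage list also had, and the part of macrophages in these values was not tested. Prdx1, a peroxiredoxin gene, fell with it in CD70TG*Ifng-/- against Ifng-/-, by 0.43 (-0.43 ± 0.09, adjusted p = 0.0232), a call lost at -0.43 to -0.40 without Ifng-/- 1 or 3 or CD70TG*Ifng-/- 2 or 3, and at -0.42 (adjusted p = 0.0594) with the probe set of largest variance.

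Txn1 had the group order of Mt1, with values of 0.187, 0.244 and 0.296 in CD70TG and -0.195 to -0.032 in CD70TG*Ifng-/-. Its fall between them was 0.34 (-0.34 ± 0.07, limma, adjusted p = 0.025), and Sqstm1 rose by 0.35 ± 0.07 (adjusted p = 0.0241). Without WT 1 the first comparison gave 0.30 for Txn1 (adjusted p = 0.0566) and -0.31 for Sqstm1 (adjusted p = 0.0519). Centring within level classes gave 0.15 for the rise of Txn1 (adjusted p = 0.308) and -0.31 for its fall (adjusted p = 0.0866). The fall of Txn1 was also lost, at -0.34 to -0.30, without CD70TG 2 or 3 or CD70TG*Ifng-/- 3, and the rise of Sqstm1, at 0.29 to 0.37, without CD70TG 1 or 3 or CD70TG*Ifng-/- 2 or 3.

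Of 11 glucocorticoid-responsive genes, which include the receptor gene Nr3c1 and its targets Fkbp5, Tsc22d3 and Per1, 0 passed limma's threshold in any of the 5 contrasts, with 3 at an unadjusted p under 0.05 in CD70TG against WT. That comparison called 10.9% of all genes, so a list of this size with no call is near the background. In it Cebpd lay 0.37 lower (-0.37 ± 0.12, adjusted p = 0.0589), which came past the threshold without Ifng-/- 1 (or 2), with adjusted p-values of 0.0258 to 0.0493, and with array weights (-0.40, adjusted p = 0.00903). Tsc22d3, a classic target, lay 0.30 lower (-0.30 ± 0.10, adjusted p = 0.0693), Per1 0.27 ± 0.09 higher (adjusted p = 0.0646) and Fkbp5 0.10 ± 0.09 higher (adjusted p = 0.486).

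In the STAT3 and interleukin-6 list of 11 genes, 1 passed limma's threshold in CD70TG*Ifng-/- against CD70TG, where 0.988% of all genes fell. It was Stat3 itself, which also passed for the interaction, where 1.89% of all genes were called. In CD70TG against WT 0 of 11 passed, where 10.9% of all genes were called. Counts this small cannot be read against these shares. The values of Stat3 were 0.218, 0.451 and 0.561 in CD70TG, -0.353, 0.068 and 0.050 in WT, and 0.545, -0.103 and -0.050 in Ifng-/-. The CD70TG*Ifng-/- mice had -0.354, -0.303 and -0.338. CD70TG was above WT and CD70TG*Ifng-/- below CD70TG with no overlap, and Ifng-/- mouse 1 was as high as CD70TG. The fall from CD70TG to CD70TG*Ifng-/- was 0.74 (-0.74 ± 0.15, limma, adjusted p = 0.0271) and the rise over WT was 0.49 ± 0.15 (adjusted p = 0.0577). The rise came past the threshold without Ifng-/- 1 or 2 (adjusted p = 0.0374 or lower), under quantile normalization (0.44, adjusted p = 0.0419) and with array weights (0.50, adjusted p = 0.00897). The fall was lost, at -0.76 to -0.67, without CD70TG 2 or 3 or any 1 of the CD70TG*Ifng-/- mice. Socs3, the feedback inhibitor that STAT3 induces, differed by -0.11 ± 0.10 in CD70TG against WT (adjusted p = 0.495).

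Genes of the interferon-gamma response were higher in CD70TG as well. Of 10 measured, 9 rose in CD70TG against WT, where 8.23% of all genes rose, with a median of 1.21 for the list and -0.02 over all genes. In CD70TG*Ifng-/- against CD70TG 9 fell, where 0.988% of all genes fell, with a median of -1.57. Iigp1, an interferon-inducible GTPase, rose by 3.15 ± 0.24 (limma, adjusted p = 7.17e-06) and Tap1, the peptide transporter of antigen presentation, by 1.65 ± 0.15 (adjusted p = 1.84e-05). Between CD70TG*Ifng-/- and Ifng-/- 0 of 10 passed limma's threshold, with 3 at an unadjusted p under 0.05 and a median of -0.23. That comparison called 2.5% of all genes, so a list of this size with no call is near the background. In that comparison Mt2 was 0.38 higher, and Iigp1 differed by 0.04 ± 0.24 (adjusted p = 0.961).

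By mouse, the mean of the 10 interferon-gamma genes was 0.94 to 1.48 in CD70TG, -0.14 to 0.26 in WT, -0.18 to 0.06 in Ifng-/- and -0.32 to -0.26 in CD70TG*Ifng-/-. The CD70TG mice were apart in this mean as in Mt2, whereas the CD70TG*Ifng-/- mice had the lowest means of the list and the second highest Mt2. The list and its direction are well known for these genes, and it was chosen with earlier results of these arrays known, so its direction is no separate evidence.

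Some markers of other marrow cells differed between the same groups. Over all genes 2.7% fell and 8.23% rose in CD70TG against WT, and 2.35% fell in CD70TG*Ifng-/- against Ifng-/-. All 14 macrophage markers fell in CD70TG against WT (median -1.77) and in CD70TG*Ifng-/- against Ifng-/- (median -2.75), with Vcam1 at -2.78 ± 0.18 and -4.21 ± 0.18 (limma, adjusted p = 1.65e-06 and 2.31e-08). The CD70TG*Ifng-/- mice had the lowest macrophage means with Mt2 at 0.034 to 0.421, and the CD70TG mice had macrophage means of -0.73 or lower with Mt2 at 1.239 to 1.783. All 7 B cell markers fell in CD70TG against WT (median -0.86). Of 13 neutrophil markers 4 fell and 1 rose in the first comparison, of 9 eosinophil and basophil markers 3 fell, of 7 monocyte markers 1 fell, of 11 T and NK cell markers 1 fell, and of 4 megakaryocyte markers 0 passed, with 1 at an unadjusted p under 0.05. The part of these cells in the metallothionein values was not tested, and in such mixed samples fewer cells of a type and less RNA per cell cannot be told apart. Of 10 erythroid markers 1 fell in CD70TG against WT, Alas2, for haem synthesis, by 0.43 (-0.43 ± 0.08, adjusted p = 0.00393). The counts of 1 or 0 in the monocyte, T and NK cell, megakaryocyte and erythroid lists are too small to be read against the shares over all genes.

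The neutrophil count of 4 depended on single mice: it was between 0 and 10 when each mouse was left out in turn, and it was 0 without WT 1 or WT 2. The 1 monocyte call, Lyz2 at -1.25 (adjusted p = 0.0414), was lost at -1.41 to -0.93 without any 1 WT mouse, CD70TG 1 or 2, Ifng-/- 3 or CD70TG*Ifng-/- 3. The macrophage count stayed at 14 in both transgene comparisons under every such omission.

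**Figure D4:**
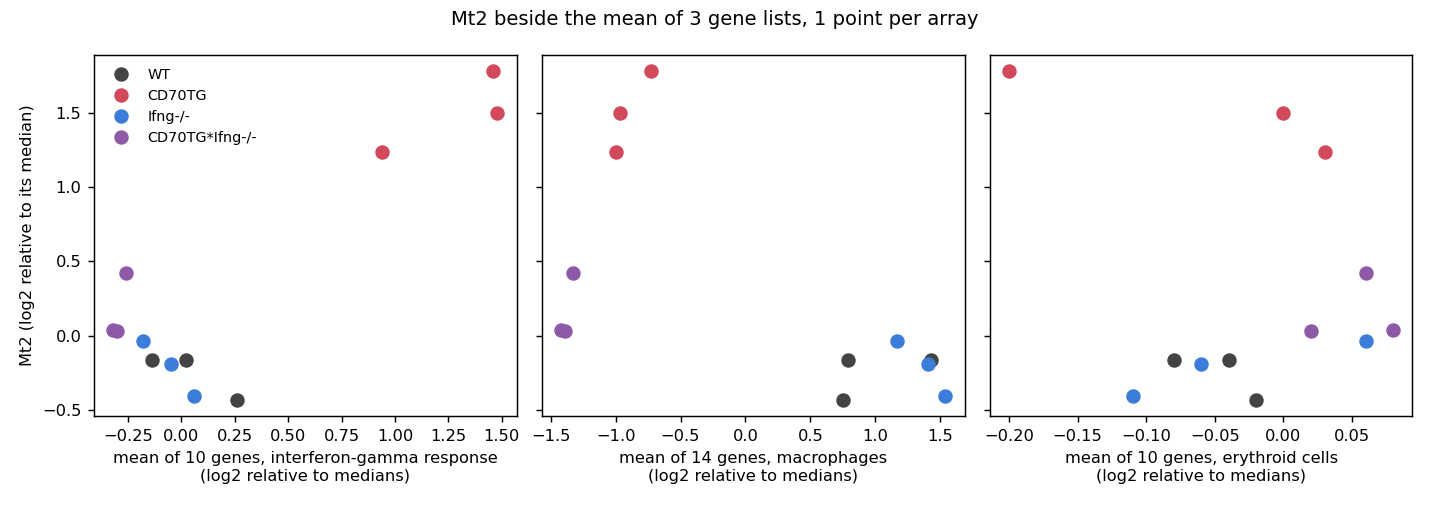
Mt2 (y axis, log2 relative to its median) against the mean of the measured interferon-gamma response genes (10), macrophage markers (14) and erythroid markers (10) on the x axes (log2 relative to their medians), with 1 point per mouse coloured by genotype. CD70TG mice lie high on the first axis, at 0.94 to 1.48, and low on the second, at -0.73 or lower, where CD70TG*Ifng-/- mice lie lower still with Mt2 between 0.034 and 0.421.

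Across the array, the genes whose pattern was most like the mean of Mt1 and Mt2 were found by Pearson's r over the 12 arrays among 18611 genes with an official symbol. The highest were Ppa1, a pyrophosphatase gene (r = 0.97), Wdr12, for ribosome assembly (0.96), Psma5, a proteasome subunit (0.96), B4galt1, a galactosyltransferase (0.96), and Fdps, for isoprenoid synthesis (0.96). They were followed by Zdhhc13, Tbrg1, Ptger3, Wdr43 and Nmd3, each at 0.95, and by Rcn1 and Ssbp1 at 0.94. In all, 55 genes had an r of at least 0.9 and 41 an r of -0.9 or lower.

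The lowest r belonged to Serinc1, Ncoa4 and Eif5, each at -0.97, Rnf10 at -0.96, and Slc25a51 and Prxl2a at -0.95. Ncoa4 encodes the receptor that delivers ferritin for breakdown, and its values were -0.610, -0.683 and -0.797 in CD70TG and 0.052, 0.130 and 0.035 in WT. Ppa1 ran the other way, with 0.598, 0.961 and 0.941 in CD70TG and -0.236, -0.137 and -0.176 in WT. Because the CD70TG mice stand apart in all of these, r was also taken over the other 9 arrays, where it was 0.80 for Ppa1, 0.91 for Wdr12, 0.87 for Psma5, 0.92 for Zdhhc13, 0.57 for Fdps, 0.48 for Rcn1 and -0.71 for Ncoa4.

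Mt1 and Mt2 were not each other's closest match: 108 of 19934 other genes had a higher r with Mt1 than Mt2 had, and 128 a higher r with Mt2 than Mt1 had. For Mtf1 the closest were Runx1, a haematopoietic transcription factor gene (r = 0.97), Inpp5e (0.96), Bod1l (0.95), and Pi4kb, Gfm2 and Vta1 (0.94 each), and without the CD70TG mice they had 0.95 to 0.99. For Slc30a1 they were Olfr881 (0.88), Lepr (0.87), Lrrc69 and Slc66a2 (0.86 each), and Fam161a and Nek8 (0.85 each), and 0 genes reached 0.9. All r here are over arrays of 1 normalisation, among many genes, and are given as descriptions.

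**Figure D5:**
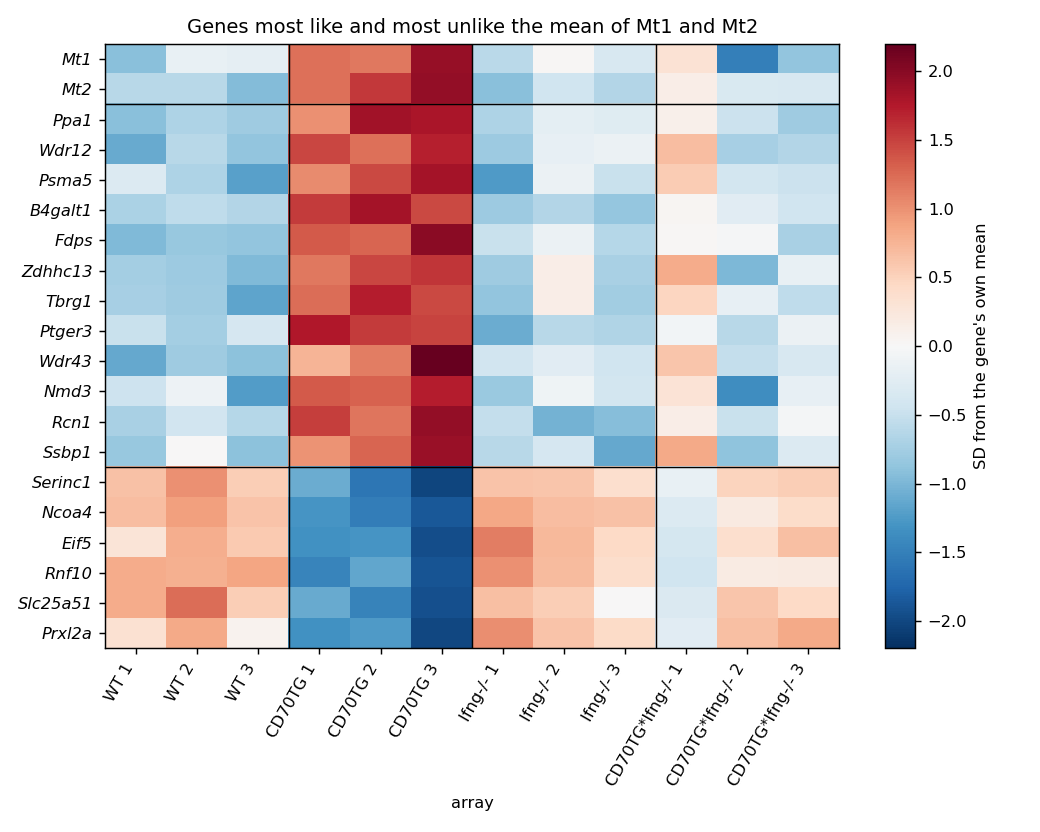
Heat map of Mt1, Mt2 and the genes with the highest and lowest Pearson's r to their mean (rows) in the 12 arrays (columns), coloured in SD from each gene's own mean. The 3 CD70TG columns are red in the upper block and blue in the lower in every row.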

How the data were processed

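Values were taken from the deposited log2 table of 28815 probe sets on 12 arrays, made by the authors with RMA (background correction, quantile normalization and summary of probes), per the submitters' processing notes. The version of RMA is not given in the sources used here, and the log base is that which RMA gives. Each probe set was found centred on its median over the 12 arrays (0 within 0.000001), in a step that no source describes, so values are relative. The number of arrays is the limit on precision. Values ran from -3.25 to 6.70.

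Probe sets with 1 symbol in GEO's platform annotation, which can be old, were used (21780), and those with several (1605) or none (5430) are not analysed here. Of the first, 21689 matched a RefSeq table by Entrez identifier. Averaging, for 998 genes, gave 19935 genes. The level class came from the rounding step of the deposited numbers (tolerance 0.05 of a step, values under 0.001 left out). The higher class holds genes whose probe sets were all above a log2 level of 8 in every array, and the lower class holds all others.

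A model with 4 group means was fitted to all 12 arrays with limma 3.58.1 (lmFit, eBayes) in R 4.3.3, with 8 residual and 6.23 prior degrees of freedom, two-sided, Benjamini-Hochberg adjustment over 19935 genes and a threshold of 0.05. All adjusted p-values are limma's. It was tested on simulated data. Correlations, motif counts and figures were made with Python 3.11.15 (pandas 2.3.3, scipy 1.17.1).

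The 4 genes and all gene lists were chosen with earlier results of these data known. By the naming rule, up to 4 genes of each pathway list with the smallest p past the threshold were picked (markers: 2). Where none passed, the 1 with the smallest p was picked. This was done for the 2 transgene comparisons and for CD70TG*Ifng-/- against CD70TG. Some genes so picked are not written out above, Ccr3, Prg2 and Cxcr2 among them. The 12 genes most like the mean of Mt1 and Mt2, the 6 least like it and the 6 most like Mtf1 and Slc30a1 were also named. Genes named outside this rule were Slc30a2, Slc30a4, Slc30a6, Csrp1, Gclc, Ndrg1, Keap1, Gclm, Socs3, Tsc22d3, Per1 and Fkbp5, chosen after their values were seen. Counts are over the listed genes that were measured, and the other listed genes are not analysed here.

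The alternatives were quantile normalization, median centring of each array, centring within level classes, the probe set with the largest variance, the higher level class only, array weights, a replicate block and leaving out each array. Quantile normalization was run on the centred per-gene values, after the one within RMA, so it equalized the spread of relative values between arrays. The SD of differences between arrays of a group was 0.148 to 0.273, so no array was a copy.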

Additional observations from a re-analysis of the deposited data

Results flagged for a closer look

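The 12 genes below were picked from the lists by the naming rule, and their transgene effect differed with the Ifng genotype. The measure is limma's interaction term (CD70TG minus WT, less CD70TG*Ifng-/- minus Ifng-/-, adjusted over 19935 genes, of which 1.89% were called). They are not all listed genes that passed it. In full, 9 of 10 interferon-gamma genes, 6 of 14 macrophage markers and 2 of 7 B cell markers did. Genes named for likeness to Mt1 and Mt2 were left out here, though some passed, such as Ppa1 (1.02 ± 0.16, adjusted p = 0.00735).

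In the interferon-gamma list the difference was 3.11 ± 0.34 for Iigp1 (adjusted p = 0.000817), 2.18 ± 0.26 for Gbp7 (adjusted p = 0.00147), 1.91 ± 0.21 for Tap1 (adjusted p = 0.000791) and 1.83 ± 0.19 for Psmb9 (adjusted p = 0.000675). It was 1.80 ± 0.25 for Gbp3 (adjusted p = 0.00468) and 1.29 ± 0.21 for Irgm1 (adjusted p = 0.00955). Each had a rise with the transgene where Ifng was intact.

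For Selenow, from the list of other MTF-1 targets, the difference was 0.71 ± 0.15 (adjusted p = 0.0276). It was 0.95 ± 0.22 for Stat3, from the STAT3 and interleukin-6 list (adjusted p = 0.0435), and 0.43 ± 0.10 for Txn1, from the oxidative stress list (adjusted p = 0.0459). These calls depended on single mice. Selenow was at 0.63 to 0.72 and not past the threshold when any 1 of 7 mice was left out (WT 1 and 3, CD70TG 2 and 3, Ifng-/- 3, CD70TG*Ifng-/- 2 and 3). Stat3 was at 0.81 to 1.04 without any 1 of those 7 or CD70TG*Ifng-/- 1, and Txn1 at 0.38 to 0.46 without any 1 of 10 mice, all but WT 2 and CD70TG*Ifng-/- 1. With centring within level classes Selenow was at 0.58 (adjusted p = 0.0581) and Txn1 at 0.29 (adjusted p = 0.182). Quantile normalization gave 0.43 for Txn1 (adjusted p = 0.0592).

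Of the cell markers, the macrophage genes C1qc, at 1.25 ± 0.20 (adjusted p = 0.00955), and Vcam1, at 1.43 ± 0.26 (adjusted p = 0.018), fell less with the transgene where Ifng was intact, and quantile normalization gave 0.36 for C1qc (adjusted p = 0.25) and 0.17 for Vcam1 (adjusted p = 0.745). The B cell gene Cd79a, at -1.04 ± 0.22 (adjusted p = 0.0299), fell more there. Vcam1 was lost at 1.31 to 1.45 without WT 1 or CD70TG*Ifng-/- 2 or 3, and Cd79a at -1.14 to -0.95 without WT 3, CD70TG 1 or 2, Ifng-/- 3 or CD70TG*Ifng-/- 2 or 3. The part of these cells in the values of Mt1 and Mt2 was not tested.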

How the results depend on the processing

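The differences of Mt1, Mt2, Mtf1 and Slc30a1 moved by less than the pooled SD in every omission of 1 mouse. Mt2 ran from 1.62 to 1.90 in CD70TG against WT and Mt1 from 0.48 to 0.59. Quantile normalization gave 1.44 for Mt2 in that comparison, 0.58 in CD70TG*Ifng-/- against Ifng-/-, -0.90 in CD70TG*Ifng-/- against CD70TG and 0.85 for the interaction. Centring within level classes gave 0.38 for Mt1 in CD70TG against WT, and for Slc30a1 -0.16 there and -0.22 for the interaction, which array weights put at 0.05. The cause of the change under quantile normalization and array weights was not tested.

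Counts of called genes in the order CD70TG against WT, CD70TG*Ifng-/- against Ifng-/-, Ifng-/- against WT, CD70TG*Ifng-/- against CD70TG and interaction were 2179, 499, 1, 282 and 377. Leaving out each mouse gave 853 to 2721, 297 to 868, 1 to 42, 136 to 365 and 82 to 711, and the lowest came without WT 1 for CD70TG against WT and the interaction and without CD70TG*Ifng-/- 3 for both comparisons of CD70TG*Ifng-/-. Array weights gave 5337, 1439, 7, 3519 and 2040, and the higher level class alone gave 1133, 62, 17 and 157 for the first 4, where fewer genes were tested. Quantile normalization called 5 between Ifng-/- and WT. Mt2 and Mtf1 were outside the higher class, so that setting was not run for them.

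With the replicate number as a block the counts were 1668, 401, 1, 214 and 128, and differences of group means cannot move under it, since each group holds each number once. Of the calls given above, those of Slc39a9, Atp7a, Atp7b and Lyz2 were lost under the block (limma, adjusted p = 0.0693 to 0.0796). So were the rise of Selenow, the fall of Stat3 and the interactions of Selenow, Stat3, Txn1 and Cd79a (adjusted p = 0.0582 to 0.0924). Cebpd in CD70TG against WT came past the threshold (adjusted p = 0.0272). The replicate numbers name mice. Deviations of same-numbered arrays correlated from -0.401 to 0.311 over 18 pairs, 6 of them over 0.1. For different-numbered arrays the range was -0.524 to 0.525 over 36 pairs, and pairing was not tested. The naming rule gave 62 gene and comparison pairs past the threshold, with interactions counted and with pairs that are not written out above. Of these 31 kept their call under every alternative run, 31 lost it under at least 1 and 0 reversed. Of 24 pairs not past it 17 passed under at least 1.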
